A study of Mus musculus with 6 samples.

Results

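Mef2c, Tcf4, Foxp1, Bcl11a, Arid1a and Dnmt3a, 6 genes of transcription and chromatin control in cortical neurons, were followed through a list of AGO2 target peaks. A peak belonged to a gene when its midpoint lay in that gene's span on mm10, which gave 16 of the 2197 peaks in the list. The genes were picked from a larger set of regulators with their peaks already known, so their having peaks is a description and was not tested. The series holds 6 libraries of mouse cortex at postnatal day 14 in 3 groups of 2, AGO2-bound target, AGO2-bound miRNA and input from whole lysate. All carry the Spy3-Ago2 genotype, a conditional tagged AGO2 allele that VGLUT2-Cre switches on in cells with an active Slc17a6 promoter, and are labelled as pyramidal neurons, which are glutamatergic and send axons out of their cortical layer. The tag lets AGO2 and the RNA it holds be captured on a SpyCatcher3 resin. Whether the 2 replicates of a group came from separate mice is not stated. The peaks are 1 list for the whole series with a score of 0 throughout, so a peak here has a position, a width and a strand but no height, no replicate and no value per library.

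Argonaute proteins such as AGO2 carry a microRNA (miRNA) to a messenger RNA that pairs with its seed, the bases near the miRNA's 5′ end, and such sites lie most often in the 3′ untranslated region, at the end of the transcript. Genes for transcription factors and chromatin enzymes often have long, conserved 3′ untranslated regions and are recurrent miRNA targets in neurons. In postnatal cortex these regulators adjust synapse number, keep the identity of projection neurons and lay down neuronal DNA methylation.

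The regulators split by the place and shape of their peaks. Mef2c had 9 peaks, Tcf4 had 3, and the other 4 genes had 1 each. In the background of 21887 nuclear protein-coding genes, 4.3% had at least 1 peak. All 12 peaks of Mef2c and Tcf4 and the peak of Arid1a were 33 to 149 nt wide and lay in the last 10% of the span, called the 3′ end here. The peaks of Foxp1, Bcl11a and Dnmt3a were 22 to 24 nt wide, and those of Foxp1 and Dnmt3a lay 105.7 and 76.7 kb from the 3′ end. Cortex was sampled in bulk, so more cells of a type and more RNA per cell cannot be told apart, and transcript levels were not analysed here.

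**Figure D1:**
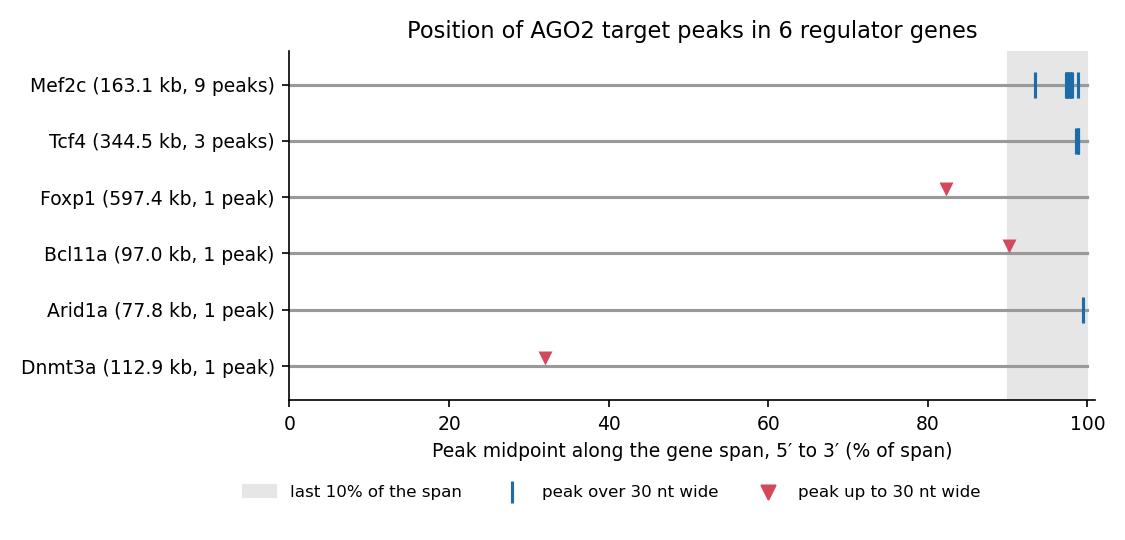
Each line is 1 gene span from its 5′ end to its 3′ end, drawn to 100% of its length, with peak midpoints marked and the last 10% shaded. The 9 Mef2c, 3 Tcf4 and 1 Arid1a peaks over 30 nt wide are all in the shaded part, the Bcl11a peak is at its edge (90.1%), and the Foxp1 (82.3%) and Dnmt3a (32.0%) peaks are outside it.

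Mef2c encodes a MADS-box transcription factor that responds to neuronal activity and restrains excitatory synapse number. Its span lies on chromosome 13 (83504017 to 83667079, plus strand, 163.1 kb). Of the 942 protein-coding genes with a peak, 13 had more than Mef2c and 2 others had the same number, and 9 or more were found in 0.0731% of all protein-coding genes. The first peak (83656265 to 83656313, 49 nt) stood alone, 10.8 kb from the end of the span. Its midpoint also fell in the span of the lncRNA gene Gm52044, which is annotated on the minus strand, whereas the peak was on the plus strand, that of Mef2c.

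The other 8 Mef2c peaks formed a run of 2403 nt, between 83662738 and 83665140, in which peaks covered 577 bases (24.0%). The run opened with a peak of 95 nt (83662738 to 83662832) whose midpoint lay 4.29 kb from the end of the span. After a gap of 22 nt came the narrowest Mef2c peak, 33 nt (83662855 to 83662887), and after 73 nt more a peak of 45 nt (83662961 to 83663005). These 3 sat within one short stretch, separated from the next group by 295 nt.

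That next group held peaks of 66 nt (83663301 to 83663366), 60 nt (83663487 to 83663546) and 74 nt (83663619 to 83663692), with gaps of 120 and 72 nt between them. A peak of 55 nt (83663983 to 83664037) followed 290 nt later. The widest Mef2c peak, 149 nt (83664992 to 83665140), came last, after the longest gap of the run, 954 nt. At 149 nt it was wider than most of the list, in which 95.6% of peaks were at most that wide. No peak was listed in the remaining 1939 nt of the Mef2c span. A window of 2403 nt with 8 or more peaks also occurred in 9 other protein-coding genes, so the density of the Mef2c run was high but not particular to it.

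Tcf4 encodes a class I basic helix-loop-helix factor that pairs with proneural partners, and loss of 1 copy of the human gene causes Pitt-Hopkins syndrome. Its span on chromosome 18 (69343429 to 69687967) is 344.5 kb long, at least as long as 98.0% of protein-coding spans, yet its 3 peaks fell within 729 nt. They were 61 nt (69683177 to 69683237), 50 nt (69683716 to 69683765) and 50 nt wide (69683856 to 69683905), 4.76, 4.23 and 4.09 kb from the end. Gaps of 478 and 90 nt separated them. Peaks covered 22.1% of this stretch, close to the 24.0% of the Mef2c run. A count of 3 or more was reached by 0.617% of protein-coding genes. At least 3 peaks within 729 nt were found in 63 of the other 941 genes with a peak. The strand of Tcf4 was not in the table used, so its position was read along the plus strand of its peaks.

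Arid1a encodes the ARID subunit of the BAF chromatin remodelling complex. Its span on chromosome 4 (133679008 to 133756769, minus strand) is the shortest of the 6, 77.8 kb. The single peak was 98 nt wide (133679434 to 133679531, minus strand), and its midpoint lay 0.47 kb from the end of the span, nearer than any peak of the other 5 genes. In width and place it resembled the Mef2c and Tcf4 peaks rather than the other single peaks.

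**Figure D2:**
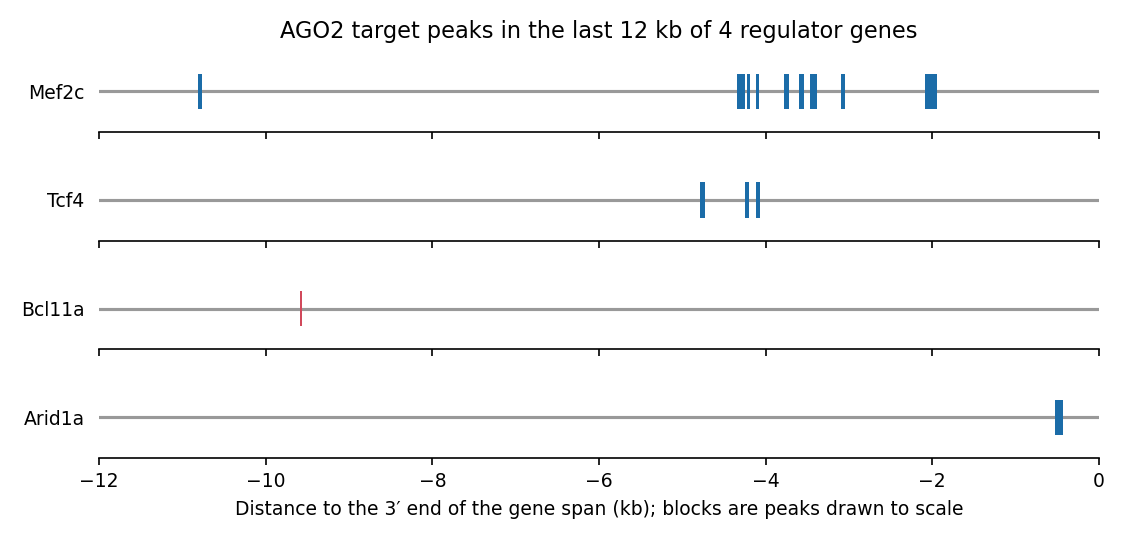
Blocks are peaks drawn to scale in the last 12 kb of the span of 4 genes, with the 3′ end at 0 on the right (kb). Mef2c has a lone peak at 10.8 kb and 8 peaks between 4.29 and 2.01 kb, Tcf4 has 3 between 4.76 and 4.09 kb, Bcl11a has 1 of 24 nt at 9.58 kb and Arid1a has 1 at 0.47 kb.

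Bcl11a, also called Ctip1, encodes a zinc-finger factor that helps to set projection neuron identity. Its span lies on chromosome 11 (24076564 to 24173558, plus strand, 97.0 kb). The one peak was 24 nt wide (24163964 to 24163987, plus strand) with its midpoint 90.12% along the span, only just inside the last 10%, and 9.58 kb from the end. The same midpoint lay in the span of the lncRNA gene 4930538E20Rik, annotated on the minus strand. Counted as the last 5% of the span or the last 5 kb, the 3′ end no longer held it.

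Foxp1 encodes a forkhead factor, mainly a repressor, that projection neurons express. Its span on chromosome 6 (98925342 to 99522746, minus strand) is the longest of the 6, 597.4 kb. The peak was 22 nt wide (99031033 to 99031054, minus strand), the narrowest of the 16, and only 2.69% of the list was at most that wide. It lay 82.3% along the span, 105.7 kb from the 3′ end. RefSeq gives Foxp1 3 start sites in the table used, and the peak was 2.75 kb upstream of the innermost one (99028298) and 235.5 kb downstream of the next.

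Dnmt3a encodes the de novo DNA methyltransferase that deposits most non-CG methylation in young neurons. Its span lies on chromosome 12 (3801559 to 3914443, plus strand, 112.9 kb). The peak was 24 nt wide (3837699 to 3837722, plus strand), 32.0% along the span and 76.7 kb from the 3′ end. It lay 30.7 and 30.6 kb downstream of 2 adjoining start sites (3806980 and 3807160) and 54.0 kb upstream of the third (3891744), which serves a shorter form. Of the 6 genes, Dnmt3a and Foxp1 alone had no peak at the 3′ end. Whether these positions are exonic or intronic was not determined, since transcript models were not used here.

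In all, 14 of the 16 regulator peaks (87.5%) lay at the 3′ end, against 1015 of 1555 peaks (65.3%) in other protein-coding genes, counting peaks in 1 such span. Peaks of 1 gene share a transcript, and 12 of the 14 came from Mef2c and Tcf4, so these shares were not tested against each other. Of the other 4 genes, 2 had their peak at the 3′ end. Median distance to the end was 4.15 kb for the regulators' peaks and 1.62 kb for those of other genes. Median width was 52.5 nt, against 57.0 nt in other genes. The spans of all 6 were long, 77.8 to 597.4 kb, with medians of 60.6 kb over all protein-coding genes with a peak and 17.2 kb over all protein-coding genes. The last 10% is a longer stretch in a long span, so the shares at the 3′ end depend on span length. Within 10 kb of the end lay 13 of the 16 regulator peaks, and within 5 kb 12. Peaks of other genes were not counted at these fixed distances.

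**Figure D3:**
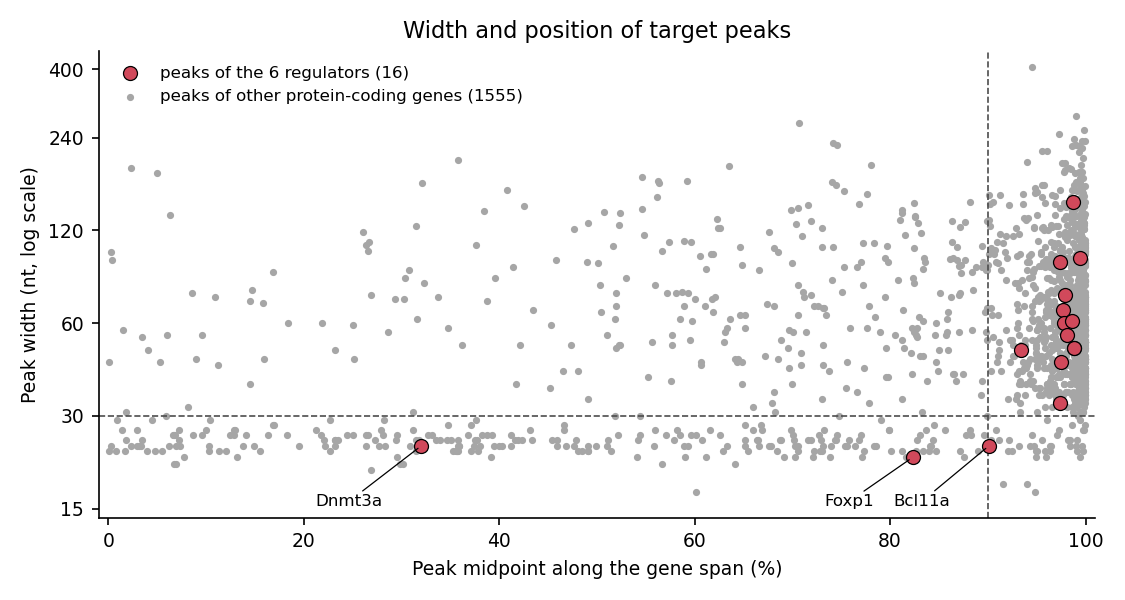
Each point is a peak, by its midpoint along the gene span (% of span) and its width (nt, log scale). Red points are the 16 regulator peaks and grey points the 1555 peaks of other protein-coding genes. Dashed lines mark 30 nt and the start of the last 10%. Below 30 nt the points run along the whole length of the spans, and the named Foxp1, Dnmt3a and Bcl11a peaks are among them, while wider peaks crowd at the right.

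Width and place went together among peaks in 1 protein-coding span. Peaks up to 30 nt wide, a limit set after the widths were seen, made up 3 of the 16 regulator peaks (18.8%) and 280 of the 1555 peaks in other genes (18.0%). In other genes 14.3% of these narrow peaks lay at the 3′ end, against 76.5% of the wider ones. The commonest width in the list was 24 nt, that of the Bcl11a and Dnmt3a peaks, with 108 peaks. Among other genes with a single peak, 38.2% of those peaks were narrow, against 5.08% of the peaks in genes with at least 3. Narrow single peaks, such as those of Foxp1, Bcl11a and Dnmt3a, were therefore common, and narrow peaks in genes with several, of which Mef2c and Tcf4 had 0, were not.

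Strand set the narrow peaks apart as well. Gene strand was known for 5 of the 6 regulators, and all 13 of their peaks lay on the strand of the gene, including the 3 narrow ones. In other genes with a known strand, 905 of 915 wider peaks (98.9%) lay on the strand of the gene, and at the 3′ end 734 of 734 did. Of the narrow peaks in those genes, 105 of 218 (48.2%) lay on the strand of the gene. Away from the 3′ end 84 of 187 did (44.9%), and at the 3′ end, where the Bcl11a peak was counted, 21 of 31 did (67.7%). The regulators' wide peaks thus belong to a class of which nearly all are sense to their gene. The Foxp1, Bcl11a and Dnmt3a peaks belong to the narrow class, which taken whole is sense about as often as antisense. The source of the narrow peaks was not tested.

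**Figure D4:**
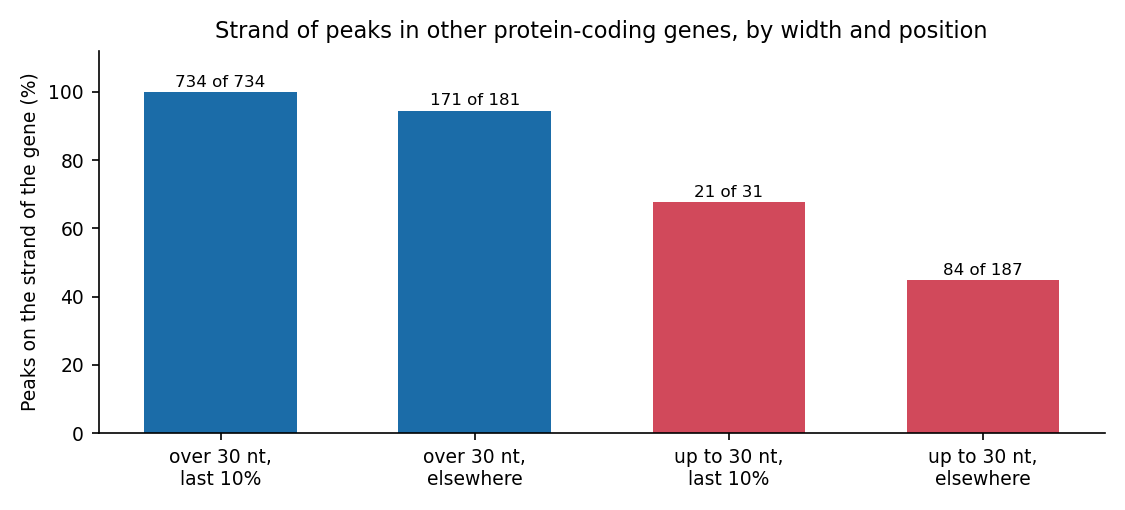
Bars give the percentage of peaks on the strand of the gene, in protein-coding genes other than the 6 regulators whose strand is known, by peak width and position, with counts above them and no error bars because peaks of 1 gene are not independent. Wider peaks reach 100.0% at the 3′ end and 94.5% elsewhere, and peaks up to 30 nt reach 67.7% and 44.9%.

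The 6 genes were set beside a list of 88 regulators of cortical transcription and chromatin that includes them. Of the 88, 21 had at least 1 peak (23.9%), against 4.3% of protein-coding genes, and without the 6 it was 15 of 82 (18.3%). These shares were not tested and expression was not matched. The whole list was written with earlier results of these data known, so leaving out the 6 does not remove that choice. Among the 82, those with a peak had a median span of 118.0 kb, against 57.5 kb for those without. With 2 or more peaks required, 7 of the 88 remained, against 1.37% of protein-coding genes, among them Mef2c, Tcf4, Auts2, Id2, Mbd5 and Nr4a1. A peak at the 3′ end was present in 16 of the 88, against 2.85% of protein-coding genes. The 7 and the 16 include genes of the 6, which were picked with their peaks known, so part of each count follows from that choice. The regulators other than the 6 had 12 of their 20 peaks at the 3′ end. Among all protein-coding genes other than the 6, which include these regulators, it was 1015 of 1555 peaks (65.3%). The share of these regulators' peaks at the 3′ end was thus not higher than in the background, and the difference was not tested.

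Among activity-dependent factors 5 of 13 had a peak. Besides Mef2c these were its relative Mef2a (95 nt, 2.62 kb from the 3′ end), the coactivator gene Crebbp (53 nt, 1.72 kb), the immediate early gene Egr1 (73 nt, 0.77 kb) and the nuclear receptor gene Nr4a1. Mef2d, the third family member on the list, had 0. Of the bHLH genes 2 of 8 had one, Tcf4 and Id2, an inhibitor of such factors whose 2 peaks (104 and 41 nt) lay 0.21 and 0.31 kb from the end. Tcf3 and Tcf12, the close relatives of Tcf4, had 0. Mef2c and Tcf4 each had more peaks than any relative on the list. Both were picked with their peaks known, so this lead is a description and was not tested.

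Of the forkhead genes, Foxp1 had its 1 peak, and its relatives Foxp2 and Foxp4 had 0. Laminar identity and zinc-finger factors had one in 6 of 19, among them Bcl11a, Myt1l (60 nt, 0.86 kb from the end), Auts2 and Nfib. Bcl11b, the paralog of Bcl11a, had 0.

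BAF complex genes had a peak in 2 of 12, Arid1a and Arid2 (53 nt, 2.73 kb from the end), both subunits that bind DNA. Arid1b, the alternative to Arid1a in the complex, had 0. Other chromatin regulators had one in 2 of 22, Chd3 and Nsd1, whose peaks of 54 and 62 nt lay 0.03 kb from the end of the span. DNA methylation genes had one in 2 of 8, Dnmt3a and Mbd5, and Dnmt1 and Dnmt3b had 0. The 4 genes with a peak in the BAF and other chromatin groups all had it at the 3′ end, as Dnmt3a did not.

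Narrow peaks occurred in 4 of the other regulators, each 24 to 26 nt wide and none at a 3′ end. In Mbd5 (26 nt) and Nr4a1 (24 nt) the narrow peak lay on the strand opposite to the gene, while the second peak of each (38 and 87 nt) lay on the gene's strand at its 3′ end. In Auts2 a plus-strand peak of 25 nt lay far from a minus-strand peak of 39 nt. Nfib had a single narrow peak of 26 nt, as Foxp1 and Dnmt3a did. The 16 wider peaks of these regulators lay on the gene's strand in 8 of 8 cases where it was known.

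Marker genes bear on which cells the list reflects. Of the glutamatergic neuron markers 5 of 7 had a peak, though not Slc17a6, whose promoter drives the Cre. GABAergic markers had one in 1 of 6, oligodendrocyte markers in 3 of 5 with 11 peaks in all, and astrocyte, microglia and endothelial markers in 0 of 5, 0 of 4 and 0 of 4. Most of the 6 regulators are also expressed in other brain cells, and the part of such cells in their peaks was not tested.

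The miRNA libraries show whether miRNAs with a known tie to these genes were bound to AGO2. These were 7 miRNAs chosen from general knowledge. Their mature sequences, from RefSeq on GRCm38.p6, are shown with the seed, bases 2 to 8, in capitals. The seed is what a full seed match in one of the peaks would pair with.
miR-9-5p: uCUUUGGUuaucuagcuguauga
miR-34a-5p: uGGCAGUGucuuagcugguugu
miR-29a-3p: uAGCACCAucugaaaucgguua
miR-29b-3p: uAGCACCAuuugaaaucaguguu
miR-29c-3p: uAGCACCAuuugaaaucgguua
miR-137-3p: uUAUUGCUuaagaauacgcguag
miR-223-3p: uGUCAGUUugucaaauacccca

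The 3 miR-29 members share 1 seed and the other 4 have seeds of their own, so the 7 stand for 5 kinds of site. The DNA letters complementary to the seeds are ACCAAAG for miR-9-5p, CACTGCC for miR-34a-5p, TGGTGCT for miR-29, AGCAATA for miR-137-3p and AACTGAC for miR-223-3p. Whether the Mef2c, Tcf4, Foxp1 or Dnmt3a peaks hold these letters was not determined, because the sequence under the peaks was not used here.

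miR-9-5p, a miRNA of neural progenitors and neurons that represses Foxp1 in spinal motor neurons, had 4424 and 4714 counts, 6.42% ± 0.273 of the library (SD, n = 2), and ranked 3rd of 1978 listed miRNAs. miR-34a-5p, which represses Foxp1 in B cells, had 43 and 46 counts, 0.0626% ± 0.00249 (SD, n = 2). Both libraries held far more of the first. The only Foxp1 peak was the narrow one deep in the span, and whether either miRNA pairs there was not tested.

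The miR-29 family represses Dnmt3a and rises as neurons mature. miR-29a-3p had 1433 and 1432 counts (2.02% ± 0.177), miR-29c-3p had 923 and 1029 (1.37% ± 0.0145) and miR-29b-3p had 774 and 690 (1.03% ± 0.174; SD, n = 2 each). Together they made up 4.68% of counts in replicate 1 and 4.16% in replicate 2. The family was abundant in both libraries. The list holds no peak in the last 10% of the Dnmt3a span, and a link between family abundance and peaks was not tested.

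miR-137-3p, tied to TCF4 in human cells, had 465 and 520 counts, 0.691% ± 0.00583 (SD, n = 2), and ranked 34th. miR-223-3p, a myeloid miRNA that represses Mef2c in granulocyte precursors, had 0 counts in both libraries. Taken as 3 counts of the total, the limit on its share was 0.00449% in replicate 1 and 0.00397% in replicate 2, and the upper ends of the exact 95% intervals were 0.00552% and 0.00488%. None of these values assigns a peak to a miRNA.

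**Figure D5:**
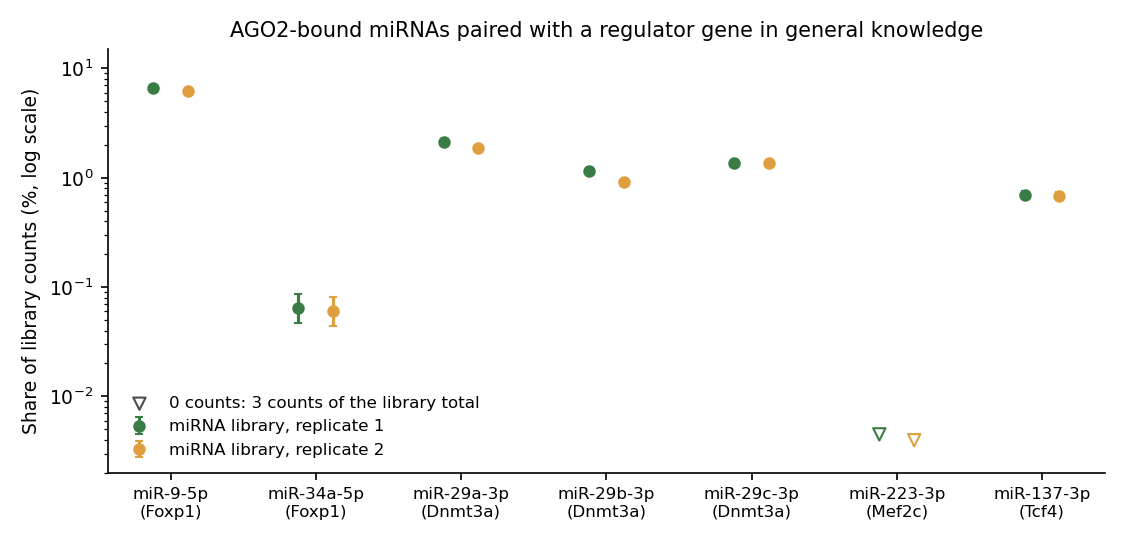
Points are shares of library counts (%, log scale) for 7 miRNAs in the 2 AGO2-bound miRNA libraries, with the gene each is tied to below its name. Exact 95% intervals cover counting error only and treat reads as independent, though duplicate reads were kept. Open triangles mark, for 0 counts, 3 counts of the library total, which is lower than the upper end of the exact interval. miR-9-5p is highest at 6.62% and 6.23%, the miR-29 members lie between 0.912% and 2.14%, and miR-223-3p has no count.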

How the data were processed

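The deposited target peaks are 1 list of positions on mm10, and the score the authors' file carries is 0 for each of its 2197 peaks. The deposited miRNA values are raw counts per mature miRNA (66854 and 75658 in all, over 1978 miRNAs), not normalized by the authors. By the file naming, duplicate reads were kept. The intervals cover counting error only and treat each read as independent, so with duplicates they may be too narrow even for that. Per the submitters' processing notes, the tools included STAR 2.5.2a, Bowtie2 2.4.2, cutadapt 2.10 and UMI-tools, with no roles given. No source names the peak caller or says whether libraries were pooled or set against the input.

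Gene spans came from RefSeq on GRCm38.p6, the assembly of mm10, and gene strands and start sites from RefSeq promoter entries. A peak was credited to each protein-coding span holding its midpoint, unless it lay in a small RNA gene. Position was read along the gene's strand or, where that was not given (Tcf4 among others), along the peak's. Coordinates count from 1. Crediting was checked on simulated peaks. Python 3.11.15, pandas 2.3.3 and SciPy 1.17.1 were used. miRNA shares are counts over the library total, with exact (Clopper-Pearson) 95% intervals. Alternatives were other rules for crediting peaks, for the 3′ end and for peak width, and leaving out each miRNA library. Per-library target and input data were not analysed here. No test was run: the peaks have no replicates and 1 group has counts. The members and all lists were chosen with earlier results of these data known. Named are all members, up to 20 regulators with a peak by number of peaks and then alphabet, named relatives without one, and the 7 miRNAs. Some genes that this rule names are left out of the text. The planned search for seed matches in peaks was not run, as no genome sequence was used here.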

Additional observations from a re-analysis of the deposited data

How the results depend on the processing

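Apart from leaving out a miRNA library, 16 alternatives to the main counts and shares were tried, and 13 stayed within 1.5 times of a count or 1 SD of a share. The exceptions were that 10 rather than 16 regulator peaks were at least 50 nt wide, that 7 rather than 21 of the 88 regulators had at least 2 peaks, and that the 7 miRNAs held 13.4% rather than 11.6% of counts when miR-128-3p, the most abundant miRNA, was left out of the total. With only peaks over 30 nt, an alternative chosen after seeing the data, Foxp1, Bcl11a and Dnmt3a had 0 peaks and the other 3 genes kept theirs. Counting only peaks on a known gene strand left 13, without Tcf4, whose strand was not given. Bcl11a left the 3′ end under the 5% and 5 kb limits, and Foxp1 entered it at the last 20%. Leaving out either miRNA replicate gave 12.1% or 11.1% for the 7 miRNAs, a shift that with 2 libraries is always under 1 SD and so says nothing about stability. No paired analysis was possible because the peaks carry no replicates and only the miRNA group has counts per library.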

Other observations

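Mef2c has a miRNA gene as its neighbour. Mir9-2, 1 of 3 genes that give miR-9-5p, lies 71.7 kb beyond the 3′ end of the Mef2c span on the same strand (chr13:83738814-83738885 on GRCm38.p6). Its hairpin is printed with the mature miR-9-5p in capitals, because this miRNA was the third most counted and counts of the mature miRNA cannot tell the 3 genes apart.
Mir9-2: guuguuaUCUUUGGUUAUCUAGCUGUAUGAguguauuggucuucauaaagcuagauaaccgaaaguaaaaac

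No peak lay within 500 kb outside the spans of 5 of the 6 regulators. How often this holds for other genes was not counted, so it cannot be called particular to these. For Dnmt3a there was 1, 375 kb away (3426559 to 3426582 on chromosome 12), and at 24 nt it had the same width as the peak inside the gene.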
